A study of Mus musculus with 2 samples.

Results

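Hybrid myonuclei are nuclei of muscle fibres that carry transcripts of more than 1 adult myosin heavy chain gene. They were picked from single-nucleus RNA sequencing of mouse quadriceps, the large extensor of the thigh, as barcodes with at least 200 detected genes in which the leading gene of Myh1, Myh2, Myh4 and Myh7 held less than 80% of their summed unique molecular identifiers (UMIs, the count of captured RNA molecules) and the second gene had at least 2 UMIs. Barcodes with more than 1 UMI of the activity-induced Nr4a1, Nr4a2 and Nr4a3, or with any UMI of 9 genes of other cell types (Dcn, Pdgfra, Fbn1, Mrc1, F13a1, Pparg, Acvr1c, Flt1 and Notch3), were left out. The rule needs at least 4 myosin UMIs, a depth that 5688 nuclei reached with the other filters met. Of these, 430 were hybrid, 300 of 3154 in the wild-type (WT) library and 130 of 2534 in the library of mice that lack PTRF. Both libraries together held 13085 nuclei that met the filters outside myosin, among 18040 barcodes with at least 200 genes.

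All mice were of strain C57BL/6N and 3 months old. The knockout removes PTRF, now named Cavin1, a coat protein of caveolae, which are small pits of the plasma membrane. The study asked how nuclei of dystrophic muscle differ from those of normal muscle. Each genotype is a single library. Differences between genotypes therefore have no replicate check, no test was made of them, and nuclei are not treated as replicates. How many mice were pooled, and of which sex, was not stated in the sources used here.

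An adult fibre builds its thick filaments from myosin heavy chains encoded by separate genes. Myh7 encodes the slow type I chain, Myh2 the fast oxidative IIa chain, Myh1 the intermediate IIx chain and Myh4 the fastest, most glycolytic IIb chain. Fibres are commonly placed in the order I, IIa, IIx, IIb, and fibres that change type are thought to pass through neighbouring isoforms, so that hybrid fibres usually pair neighbours. A muscle fibre holds many nuclei in a shared cytoplasm, and a nucleus with transcripts of a pair of these genes can reflect a gene switch, stable co-expression, or RNA that came from elsewhere.

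The fast genes stand side by side on the plus strand of mouse chromosome 11 in build GRCm38: Myh2 at chr11:67171027-67197517, Myh1 at chr11:67200052-67224575 and Myh4 at chr11:67238029-67260446. A gap of 2534 bases separates Myh2 from Myh1, and 13453 bases separate Myh1 from Myh4. The antisense transcript Myhas runs along chr11:67211256-67237573 on the minus strand, across the second part of Myh1 and the gap before Myh4. Myh7 lies elsewhere, at chr14:54970684-54994626 on the minus strand. The 250 bases before each RefSeq start site (build GRCm38.p6, plus strand) are shown because these are the promoters whose transcripts meet in the hybrid nuclei, at chr11:67170777-67171026 for Myh2, chr11:67199852-67200101 for Myh1 and chr11:67237562-67237811 for Myh4. Capitals mark the longest run of bases that all 3 windows share and each match to TATAAA on either strand.
Myh2: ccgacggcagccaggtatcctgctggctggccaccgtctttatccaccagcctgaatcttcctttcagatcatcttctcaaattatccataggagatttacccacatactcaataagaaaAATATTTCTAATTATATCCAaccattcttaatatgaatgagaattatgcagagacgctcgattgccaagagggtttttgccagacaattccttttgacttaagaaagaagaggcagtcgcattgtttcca
Myh1: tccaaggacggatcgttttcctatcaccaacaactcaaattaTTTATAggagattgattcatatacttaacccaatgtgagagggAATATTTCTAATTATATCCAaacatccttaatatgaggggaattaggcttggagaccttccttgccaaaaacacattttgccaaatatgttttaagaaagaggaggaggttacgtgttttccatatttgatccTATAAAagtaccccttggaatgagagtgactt
Myh4: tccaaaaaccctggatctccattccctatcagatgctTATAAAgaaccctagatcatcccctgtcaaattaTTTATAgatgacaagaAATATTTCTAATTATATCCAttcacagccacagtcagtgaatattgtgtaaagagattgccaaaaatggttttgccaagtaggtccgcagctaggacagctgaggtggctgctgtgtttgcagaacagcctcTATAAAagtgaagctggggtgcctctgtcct

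The shared run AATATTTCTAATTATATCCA is 20 bases long and was found, on either strand, in 3 of 32851 RefSeq promoter windows of the same length, which are these 3. Its first base lies 130 bases before the Myh2 start site, 165 before that of Myh1 and 163 before that of Myh4. The TATAAA matches closest to the start begin 32 bases before it in Myh1 and 31 in Myh4, the Myh2 window held no match, and 12.4% of all windows held at least 1. The E-box letters CANNTG, which basic helix-loop-helix factors such as MyoD bind, matched 2 times in the Myh4 window and 0 times in the other two, against 66.2% of all windows with a match. The core letters GGAAA, found in sites of the calcium-regulated NFAT factors, matched 1 time in Myh2, 2 times in Myh1 and 0 times in Myh4, against 55.6% of windows. A match describes letters only and shows neither a bound site nor a cause, and a missing match says only that the letters are not in this window.

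The WT library held 10280 barcodes with 9746980 UMIs and the knockout library 7766 barcodes with 16052317 UMIs, and median depth was 703 and 1562 UMIs. The targeted gene, Cavin1, was counted at 75 WT and 2 knockout UMIs, with 0 in the hybrid nuclei of either library. Xist (4358 UMIs) and Y-linked transcripts (7096 UMIs) were both abundant in the knockout library, whereas WT nuclei gave 4 Xist UMIs and 3965 Y-linked UMIs. Barcode sequences shared by both libraries numbered 24, of which 1 was a hybrid in either library.

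The hybrid nuclei had the transcripts of muscle fibres. Ttn, which encodes titin, the molecular spring of the sarcomere, was found in all 300 WT and all 130 knockout hybrids, at 66672 CPM in WT and 49483 in the knockout. CPM stands for UMIs per 1000000 UMIs, with adult myosin UMIs left out of the totals. Neb, which encodes the thin filament ruler nebulin, stood at 12167 and 12796 CPM. Markers of 9 other cell types were low in the hybrids. The rule did not use these genes, but it left out nuclei with any UMI of other genes of some of these types. Satellite cell genes summed to 7 UMIs in WT and 0 in the knockout, macrophage genes to 7 and 2, endothelial genes to 16 and 2, lymphatic genes to 11 and 2, lymphocyte genes to 18 and 4, Schwann cell genes to 7 and 6, and fibro-adipogenic genes to 16 and 7. For genes at 0, 3 UMIs would correspond to 6.30 CPM in the WT hybrids and 8.58 CPM in the knockout hybrids. The exceptions were the adipocyte and mural lists, where Cd36, a fatty acid transporter of muscle and fat alike, gave 502 of 508 UMIs in WT and 464 of 469 in the knockout, and Abcc9, a potassium channel subunit of vessel and muscle, gave 77 of 85 and 94 of 95. The adipocyte-defining genes Adipoq and Lep were at 0 in both. Markers of muscle fibres were thus abundant in the hybrids, and the defining markers of other cell types few.

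Hybrids were a smaller share of the knockout nuclei than of the WT nuclei at this depth. They made up 9.51% (95% exact Clopper-Pearson interval 8.51 to 10.6) of the WT nuclei with at least 4 myosin UMIs, and 5.13% (4.30 to 6.06) of the knockout nuclei. The difference of -4.38 percentage points had a counting interval of -5.72 to -3.03. Intervals here and below cover counting error only and not the spread between animals. Many members sit at the thresholds of the rule: the second isoform had exactly 2 UMIs in 183 of 300 WT hybrids (61.0%) and 58 of 130 knockout hybrids (44.6%). The leading isoform held 70% to 80% in 72 WT and 37 knockout hybrids. Just outside the rule, 36 WT and 19 knockout nuclei had a second isoform with at least 2 UMIs but a leader at 80% to 90%, and 242 WT and 32 knockout nuclei had a leader below 80% whose second isoform was at 1 UMI. With at least 3 UMIs required of the second isoform the shares came to 3.71% and 2.84%, and with at least 5 UMIs to 0.888% and 1.07%, where the order of the libraries was turned.

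The share also moved with how much myosin RNA a nucleus held. Among WT nuclei with 4 to 5 summed myosin UMIs 5.75% were hybrid, with 6 to 9 UMIs 12.6%, with 10 to 19 UMIs 15.4%, and with 20 or more 8.60% (8 of 93 nuclei, interval 3.79 to 16.2). The knockout values were 2.30%, 5.39%, 7.68% and 11.3% (13 of 115, interval 6.16 to 18.6). The knockout share was lower in the first 3 bins, and in the deepest bin the intervals overlapped. Hybrids held a median of 1338 UMIs in WT and 2380 in the knockout, against 1092 and 2105 in single-isoform nuclei, which have at least 80% of their myosin UMIs from 1 gene. With each nucleus thinned to 1000 UMIs and shallower nuclei left out, 8.17% of WT (100 of 1224) and 3.60% of knockout nuclei (39 of 1083) were hybrid.

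The hybrid share differed more between leading isoforms than between the libraries. Leader and hybrid status are read from the same myosin UMIs that the rule used, so this is a description. Myh4 RNA from outside a nucleus, treated below, counts as a second isoform only where another gene leads. Its part in these shares was not tested. Where isoforms were level, the lead went to the first in the order Myh1, Myh2, Myh4 and Myh7. The shares by leader, and those recomputed from them below, depend on this order and on the rule's own UMIs. Equal UMIs of both leading isoforms were found in 77 of 300 WT and 19 of 130 knockout hybrids. Of nuclei led by Myh1, 22.8% (119 of 523) in WT and 26.3% (54 of 205) in the knockout were hybrid. Of nuclei led by Myh2, 30.9% (112 of 363) and 33.3% (47 of 141) were hybrid. Nuclei led by Myh4 were hybrid in 3.05% (69 of 2263) and 1.29% (28 of 2163). Ties with Myh1 or Myh2 are not in this class, so nuclei with Myh4 ahead of both were rarely hybrid in either library. The difference between libraries was 3.59 points (-3.13 to 10.9) for Myh1-led, 2.48 points (-6.29 to 11.8) for Myh2-led and -1.75 points (-2.64 to -0.903) for Myh4-led nuclei. The libraries also differed in how many nuclei each isoform led: Myh4 led 71.8% of WT and 85.4% of knockout nuclei, Myh1 16.6% and 8.09%, and Myh2 11.5% and 5.56%. Given the WT mix of leading isoforms, the knockout hybrid share would be 9.15%, and given the knockout mix the WT share would be 6.22%.

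**Figure D1:**
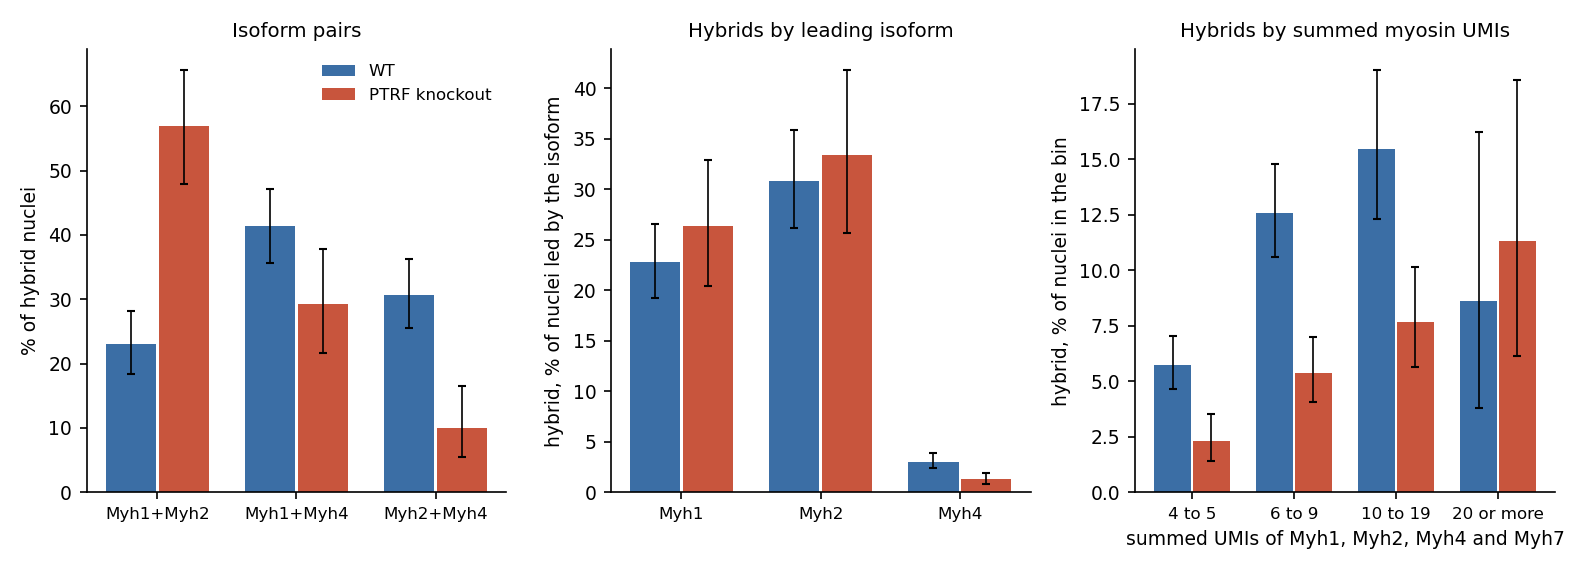
Left, each isoform pair as a percentage of hybrid nuclei; middle, hybrids as a percentage of the nuclei led by each isoform; right, hybrids as a percentage of nuclei in bins of summed myosin UMIs, with WT in blue, the PTRF knockout in red and bars for 95% exact intervals of counting error. Myh1+Myh2 is the most frequent knockout pair (56.9%) and Myh1+Myh4 the most frequent WT pair (41.3%). Myh4-led nuclei, which exclude ties with Myh1 or Myh2, are hybrid in 3.05% and 1.29%.

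The sex mixture moved with the share. Among knockout nuclei with Xist and no Y-linked UMI 9.40% (25 of 266) were hybrid, and among those with Y-linked UMIs and no Xist 4.52% (62 of 1371). The Xist-marked nuclei were led by Myh4 in 68.0% and the Y-marked ones in 89.2%. Y-marked WT nuclei were hybrid in 11.4% (134 of 1176). Between Y-marked nuclei alone the libraries differed by -6.87 points. Nuclei with both Xist and Y-linked UMIs made up 4 of 91 sex-marked knockout hybrids (4.40%, interval 1.21 to 10.9). Among sex-marked knockout single-isoform nuclei they were 36 of 1571 (2.29%, 1.61 to 3.16). Any UMI counted as a mark, so droplets with nuclei of 2 animals and free RNA cannot be told apart in them. The part of sex and of droplets with 2 nuclei in the hybrid share was otherwise not tested.

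The isoform pairs differed between the libraries. In WT, 124 hybrids (41.3%) paired Myh1 with Myh4, 92 (30.7%) Myh2 with Myh4, and 69 (23.0%) Myh1 with Myh2. In the knockout, 74 (56.9%) paired Myh1 with Myh2, 38 (29.2%) Myh1 with Myh4, and 13 (10.0%) Myh2 with Myh4. Knockout minus WT was 33.9 points (23.9 to 43.2) for the IIa and IIx pair, -12.1 (-21.2 to -2.16) for IIx and IIb, and -20.7 (-27.5 to -12.6) for IIa and IIb. The remaining hybrids held 3 isoforms at 2 or more UMIs each (11 WT and 4 knockout nuclei), or Myh7 with Myh4 (3 and 1) or with Myh2 (1 and 0). Slow myosin was therefore in few hybrids of this muscle. The IIa and IIx pair made up 9 of 25 Xist-marked and 38 of 62 Y-marked (61.3%) knockout hybrids, against 31 of 134 Y-marked (23.1%) WT hybrids.

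With ties credited in the order given above, Myh2-led hybrids carried most of the difference in the pairs with Myh2. The other isoform of their pair, lower or level, was Myh4 in 67 of 112 WT nuclei and in 3 of 47 knockout nuclei. The IIa and IIx pair made up 35 of 112 and 41 of 47. Myh1-led hybrids showed the same order, with Myh4 lower or level in 84 of 119 WT and 21 of 54 knockout nuclei. Hybrids led by Myh4, which exclude ties with Myh1 or Myh2, differed little: Myh1 was second in 40 of 69 and 17 of 28, and Myh2 in 25 of 69 and 10 of 28. Since the rule chose the nuclei by these same UMIs, pairs and their shares are a description.

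Within a pair the rule itself limits how unequal the isoforms can be. In Myh1+Myh2 nuclei the medians were 3 Myh1 UMIs (range 2 to 25) and 4 Myh2 UMIs (2 to 15) in WT, and 3 (2 to 14) and 5 (2 to 24) in the knockout. In Myh1+Myh4 nuclei both isoforms had a median of 3 UMIs in WT, with Myh4 between 2 and 15, and the knockout medians were 3.5 Myh1 UMIs and 3 Myh4 UMIs. The WT Myh2+Myh4 nuclei had a median of 3 Myh2 UMIs (2 to 21) but only 2 Myh4 UMIs (2 to 11). The 13 knockout nuclei of that pair had 4 Myh2 UMIs (2 to 12) and 6 Myh4 UMIs (2 to 20). Equal UMIs of both leading isoforms were found in 77 WT and 19 knockout hybrids.

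**Figure D2:**
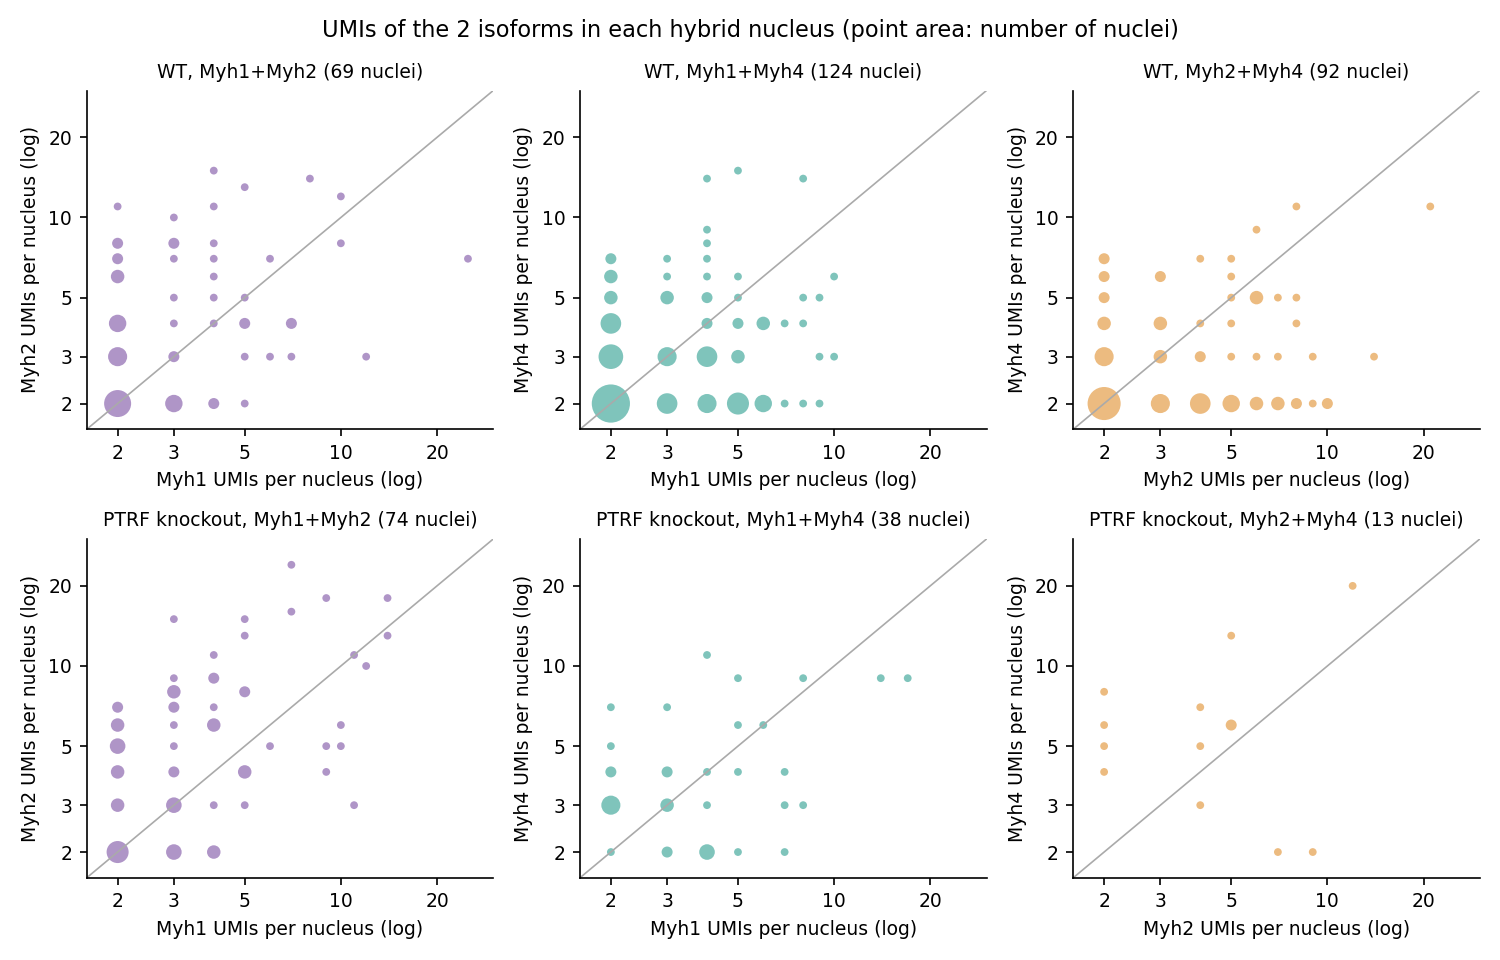
UMIs of the paired isoforms in each hybrid nucleus on log axes, WT above and the PTRF knockout below, 1 panel for each pair, with point area giving the number of nuclei and the grey line equal UMIs. Many WT points lie at 2 UMIs of 1 isoform, and the Myh2+Myh4 panel holds 92 WT nuclei but 13 knockout nuclei.

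Myosin was also counted in nuclei that should lack it, those with at least 3 UMIs of the 9 other-cell genes. Whether its source was free RNA or droplets with more than 1 nucleus was not tested. In the 176 such WT nuclei Myh4 stood at 9.30 UMIs per 10000 (8.04 to 10.7), Myh1 at 4.1 and Myh2 at 2.99, and in the 1050 knockout nuclei at 4.79 (4.50 to 5.09), 0.816 and 0.426. In nuclei with at least 5 such UMIs, 59 in WT and 635 in the knockout, Myh4 stood at 8.97 (7.01 to 11.3) and 4.01 per 10000, so Myh4 was higher in the WT library at both minimums. Myh1 there stood at 1.26 (0.606 to 2.32, from 10 UMIs) and 0.592, and Myh2 at 0.379 (0.0782 to 1.11, from 3 UMIs) and 0.344, so the WT levels of these isoforms depend on the minimum. They also held 261 and 91.8 Ttn UMIs per 10000, and so were not free of fibre RNA. Their median depth was 815 and 1559 UMIs. The myosin part of the rule was met by 1.70% of them in WT (3 of 176) and 0.762% in the knockout (8 of 1050), against 3.41% and 3.04% of the nuclei that met the other filters. Among those with at least 4 myosin UMIs it was met by 3 of 24 (12.5%, interval 2.66 to 32.4) and 8 of 106 (7.55%, 3.31 to 14.3). The hybrid shares of 9.51% and 5.13% are not above these, so the share is given as a description of UMIs and not as a rate of co-transcription.

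The level of the other-cell nuclei shows how near the 2-UMI minimum lies to it. It was not the lowest Myh4 level. Nuclei with 80 to 100% Myh2-side share, on the scale described below, held 2.67 Myh4 UMIs per 10000 in WT and 0.464 in the knockout. At the depth of the Myh1+Myh4 nuclei it comes to a mean of 1.37 Myh4 UMIs in WT and 1.22 in the knockout, and at that of the Myh2+Myh4 nuclei to 1.51 and 1.55. For Myh1+Myh2 nuclei it comes to 0.670 and 0.203 Myh1 UMIs and to 0.489 and 0.106 Myh2 UMIs. The UMIs that the pairs held are bounded by the rule, which asks for at least 2 of each paired isoform, and are therefore not compared with these means. Myh1 and Myh2 transcripts also share sequence, since 553 of 5991 windows of 91 bases along the Myh1 transcript (9.23%) occur in Myh2, against 171 in Myh4 and 0 in Myh7. The treatment of reads that match several genes was not given in the sources used here.

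Lowering each nucleus's Myh4 by the rounded number that its depth predicts left 185 WT and 117 knockout hybrids. Of these, 60 WT and 28 knockout nuclei were Myh1+Myh4, 47 and 11 were Myh2+Myh4, and 71 and 75 were Myh1+Myh2. The shares became 7.59% and 5.31%, and their difference shrank to -2.28 points. With all 4 isoforms lowered, an alternative chosen after seeing the data, the shares were 6.28% and 5.26% and the difference -1.02 points. The knockout share was the lower one in both cases, and the difference was smaller in both than without lowering. The second case uses the WT levels of 4.1 for Myh1 and 2.99 for Myh2, which were 1.26 and 0.379 at the higher marker minimum.

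Genes outside myosin were used to place the hybrids on a scale between the fibre types. A droplet with nuclei of different types, or with much free RNA, would also lie between the ends and carry both isoforms. Doublets were not removed, so the scale cannot tell such mixtures from nuclei of an intermediate type. A gene set of the Myh2 side was formed from the 268 genes at least 2-fold higher in Myh2-only than in Myh4-only nuclei in both libraries, and a set of the Myh4 side from 278 genes with the opposite difference, of 4754 genes with at least 50 UMIs. They were chosen by size in nuclei that are not hybrid, after the data were seen. On a scale where Myh4-only nuclei stand at 0% and Myh2-only nuclei at 100%, the summed hybrids stood at 65.0% in WT and 71.9% in the knockout. Myh1+Myh2 nuclei stood at 93.8% and 98%, next to Myh2-only nuclei and above Myh1-only nuclei at 75.6% and 78.1%. Myh1+Myh4 nuclei stood at 44.8% and 44.3%, alike in both libraries. Myh2+Myh4 nuclei differed, at 68.2% in WT and 42.6% in the 13 knockout nuclei.

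Single nuclei showed the same order. The Myh2-side share of both sets' UMIs had a median of 16.9% in WT Myh4-only nuclei and 78.4% in Myh2-only nuclei. It was 46.6% in WT Myh1+Myh4 nuclei (quartiles 30.8 to 56.4), 59.6% in Myh2+Myh4 nuclei (45.4 to 73.5) and 74.7% in Myh1+Myh2 nuclei (68.3 to 78.4). The knockout medians were 42.5%, 35.5% and 76.0% for the same pairs. Of WT hybrids, 233 of 300 lay above the 95th percentile of Myh4-only nuclei and 161 below the 5th percentile of Myh2-only nuclei. In the knockout, 120 of 130 lay above the former and 55 below the latter.

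Myosin was then read along this scale. High Myh4 at its low end and high Myh2 at its high end follow from the nuclei that chose the sets, so only Myh1 and the place of the hybrids add to them. Mixed droplets would fall in the middle bins too, and their part was not tested. In WT nuclei with 0 to 20% Myh2-side share, Myh4 stood at 39.0 UMIs per 10000, Myh1 at 0.751 and Myh2 at 0.428. Myh1 and Myh4 met in the 40 to 60% bin, at 16.2 and 16.6, Myh1 was highest in the 60 to 80% bin at 23.8, and Myh2 was highest in the last bin at 32.9. Knockout nuclei had the same order, with Myh4 at 29.7 in the first bin, Myh1 and Myh4 at 8.81 and 8.54 in the third, Myh1 at 17.1 in the fourth and Myh2 at 23.8 in the last. Myh4 in the last bin was 2.67 per 10000 in WT and 0.464 in the knockout, below the 9.30 and 4.79 of the other-cell nuclei. Hybrids made up 0.915% and 0.213% of nuclei in the first bin, 26.9% and 22.3% in the middle bin, and 21.3% (27 of 127) and 32.8% (22 of 67) in the last. Myh7 reached 7.33 per 10000 in the last knockout bin and 0.240 in the last WT bin.

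**Figure D3:**
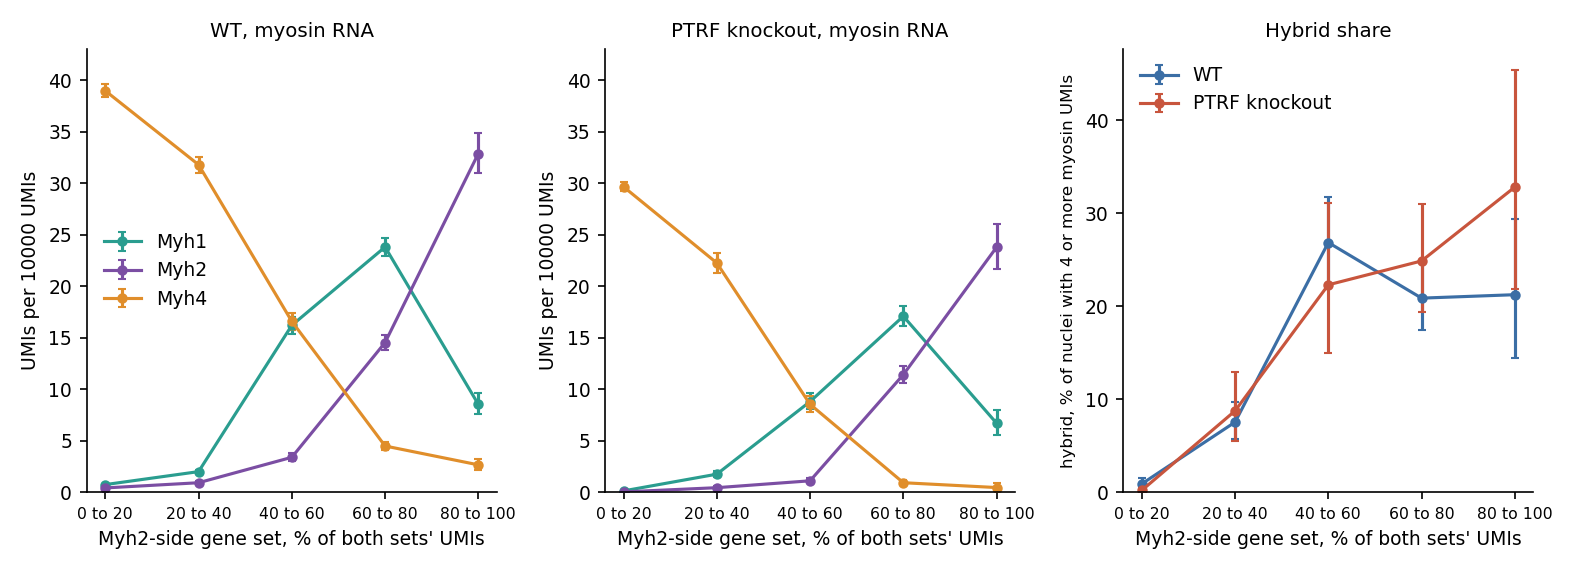
Level of Myh1, Myh2 and Myh4 in UMIs per 10000 UMIs (left and middle) and the hybrid share (right) in bins of the Myh2-side gene set's share of both sets' UMIs, with 95% counting intervals. Myh4 falls from 39.0 to 2.67 in WT and from 29.7 to 0.464 in the knockout, Myh1 is highest in the 60 to 80% bin, and hybrids are rare in the first bin of both libraries.

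Against Myh4-only nuclei the hybrids had more of most measured oxidative genes and of the few slow genes that could be measured. They had less of many glycolytic genes. A gene was counted as higher or lower where the CPM ratio was at least 1.5-fold in the same direction in both libraries. Of 7816 genes with at least 20 UMIs, 797 were higher (10.2%) and 562 lower (7.19%), and the median log2 ratio over all of them was 0.01 in WT and 0.10 in the knockout. Of the list of 18 fast and glycolytic genes, 0 were higher and 10 lower, with medians of -0.72 and -0.79. Of 18 measured oxidative genes, 13 were higher and 1 lower, with medians of 1.18 and 1.44. All 5 slow-programme genes with enough UMIs were higher, with medians of 4.88 and 5.98, while 8 of the 13 on that list did not reach 20 UMIs. The minimum counts both classes together, so a scarce gene can pass it through the hybrids where it is high. Myoz2, Ankrd2 and Csrp3 had 141, 172 and 39 UMIs in WT hybrids and 82, 70 and 26 in knockout hybrids. The count of slow genes is therefore a description and no support for the list.

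Among the fast genes, Actn3, the Z-disc actinin of glycolytic fibres, had 174 CPM in the WT hybrids and 132 in the knockout hybrids, against 570 and 442 in Myh4-only nuclei. Its WT log2 ratio was -1.70 (-2.05 to -1.39) and its knockout ratio -1.73 (-2.20 to -1.33). Pvalb, the calcium buffer parvalbumin, had 181 and 203 CPM against 574 and 390. Mybpc2, the fast myosin-binding protein C, had 408 and 286 CPM against 1146 and 946. These genes were lower in the hybrids than in Myh4-only nuclei, but higher than in Myh2-only nuclei, where Actn3 stood at 31.8 and 29.1 CPM and Mybpc2 at 92.1 and 11.6. The pairs held them unevenly: Actn3 was at 214 and 258 CPM in Myh1+Myh4 nuclei and at 44.6 (5 UMIs) and 10.9 (2 UMIs) in Myh1+Myh2 nuclei. In Myh2+Myh4 nuclei it was at 201 and 382 CPM, beside 130 and 64.6 CPM in the nuclei with other-cell markers. For the WT Myh2+Myh4 nuclei, Pvalb at 208 CPM and Mybpc2 at 409 CPM lay near the 183 and 338 CPM of those other-cell nuclei.

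Fatty acid genes were among the oxidative genes that were higher. Cd36 had 1055 CPM in WT and 1326 in knockout hybrids, against 121 and 104 in Myh4-only nuclei, log2 ratios of 3.13 (2.92 to 3.33) and 3.68 (3.50 to 3.86). Lpl, the lipase that frees fatty acids from lipoproteins, had 254 and 572 CPM against 37.9 and 26.4. Ckmt2, the mitochondrial creatine kinase, had 647 and 537 CPM against 136 and 103, and Mb, the oxygen store myoglobin, 63.0 and 91.5 against 9.38 and 3.51. In every pair these genes were above the Myh4-only level in both libraries. Cd36 was already at 971 and 961 CPM in Myh1+Myh4 nuclei, beside 560 and 889 CPM in the nuclei with other-cell markers. Cd36 is also a gene of fat cells, so part of the level in those other-cell nuclei may be their own. The exception on the list was Ucp3, a mitochondrial uncoupling protein, whose log2 ratios were -0.60 and -0.67.

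The slow genes that were higher were Myoz2, Ankrd2 and Csrp3, which belong to the Z-disc and to stretch sensing, and Atp2a2 and Tpm3, the calcium pump and tropomyosin of slow fibres. Log2 ratios of Atp2a2 were 2.20 and 1.75, and of Tpm3 1.43 and 1.48. Myoz2, the calcineurin-binding calsarcin of oxidative fibres, had 296 and 234 CPM against 4.88 and 1.48 in Myh4-only nuclei. Ankrd2, a stretch-responsive ankyrin repeat protein, had 361 and 200.1 CPM against 8.26 and 1.48, and Csrp3, the muscle LIM protein, 82.0 and 74.3 against 2.63 and 1.11. Tnni1, the slow troponin I, had 0 UMIs in WT and 2 in knockout hybrids, and Tnnt1, the slow troponin T, 5 and 3. Myoz2 set the pairs apart: Myh1+Myh4 nuclei had 1 UMI in WT and 2 in the knockout, while Myh1+Myh2 nuclei had 463 and 355 CPM and Myh2-only nuclei 562 and 448. Myh2+Myh4 nuclei held 550 CPM in WT, at the Myh2-only level, and 215 CPM from 9 UMIs in the knockout. Cd36 and Myoz2 are thus both high in hybrids with Myh2, whereas hybrids of Myh1 and Myh4 have only the first.

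Of 25 regulators of fibre type with enough UMIs, 6 were higher and 3 lower. Esrrg, an orphan receptor that drives oxidative genes, had 2763 and 2490 CPM against 454 and 126 in Myh4-only nuclei, log2 ratios of 2.61 (2.49 to 2.72) and 4.30 (4.16 to 4.45). Ppargc1a, the coactivator of mitochondrial genes, had 443 and 489 CPM against 182 and 184, and Ppargc1b, Esrra, Six4 and Hdac5 were also higher. Maf, a large Maf factor linked to Myh4 transcription, had 307 and 449 CPM against 771 and 1385, and Sox6, a repressor of slow genes, 3022 and 3110 against 4852 and 5321. Both factors were lower in the hybrids of either library. The third lower one was 2310065F04Rik, an RNA transcribed near the fast myosin cluster, with 11 and 7 UMIs in the hybrids. Among the pairs Maf was lowest in Myh1+Myh2 nuclei, at 205 CPM (23 UMIs) and 147 CPM (27 UMIs). It stood at 362 and 899 CPM in Myh1+Myh4 and at 322 and 644 in Myh2+Myh4 nuclei, the last from 13 nuclei. The order of these 2 pairs is not read further.

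Ranked by size over all genes, the 10 highest in hybrids against Myh4-only nuclei were Myoz2, Ankrd2, Myom3, Pdlim1, Myh10, Esrrb, Fhl1, Lmod2, Actn2 and Ppara. Their WT log2 ratios lay between 3.37 and 5.88 and those of the knockout between 3.56 and 7.23. Myom3, an M-band protein, had 183 and 214 CPM against 7.51 and 3.51. Actn2, another Z-disc actinin, had 2927 and 2407 CPM against 279 and 149, and Ppara, a fatty acid sensor, 645 and 577 against 62.3 and 23.4. The 10 lowest were Casr, Ttyh2, Katnal2, Slc4a10, Gdap1, Pax3, Xylt1, Adamtsl1, Dusp3 and Pdzd7, with WT log2 ratios between -3.21 and -1.84. For Casr, Ttyh2, Katnal2, Pax3 and Dusp3 the WT hybrids held only 1 to 3 UMIs. Slc4a10, a bicarbonate transporter, had 25.2 and 100.1 CPM against 152 and 501, and Adamtsl1, a secreted ADAMTS-like protein, 193 and 237 against 781 and 893. Casr, the calcium-sensing receptor, had 2 UMIs in the hybrids of each library, against 77 and 293 in Myh4-only nuclei, log2 ratios of -2.47 (-5.85 to -0.88) and -2.92 (-6.29 to -1.38).

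**Figure D4:**
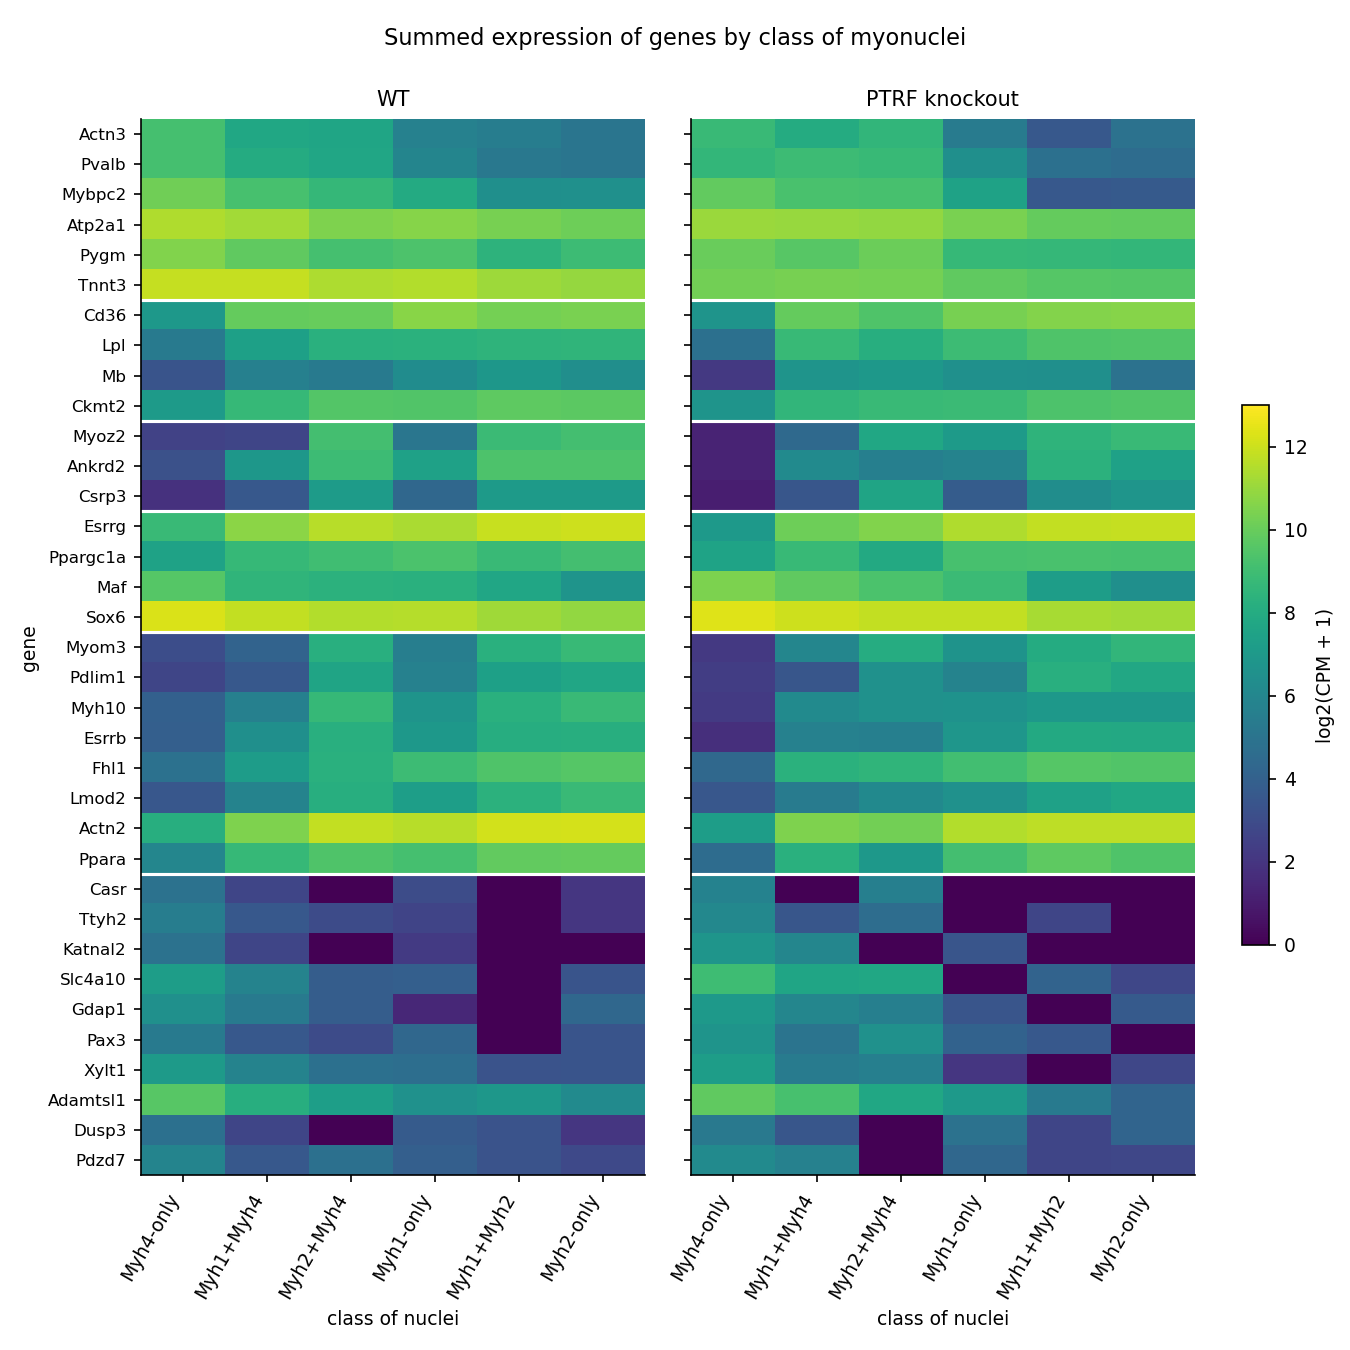
Colour gives log2(CPM + 1) of UMIs summed over nuclei, for genes in rows (fast, oxidative, slow, regulators, then genes named by size) and classes of nuclei in columns, WT left and the PTRF knockout right. Myoz2 is low in Myh4-only and Myh1+Myh4 columns and high where Myh2 is present, and the 10 genes at the bottom are highest in Myh4-only nuclei.

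Against Myh1-only nuclei, 89 of 3812 genes were higher (2.33%) and 50 lower (1.31%). The hybrids had more of 3 slow genes that could be measured, Myoz2, Ankrd2 and Csrp3, and of the fast genes Actn3, Pvalb and Mybpc2, so genes of both ends were above the pure IIx level. Log2 ratios were 3.10 (2.44 to 3.91) and 0.78 (0.24 to 1.36) for Myoz2, and 1.75 (1.14 to 2.42) and 1.61 (0.74 to 2.66) for Actn3. Against Myh2-only nuclei, 100 of 3283 genes were higher (3.05%) and 97 lower (2.95%). Of the fast list 8 of 17 genes were higher, among them Pvalb at 2.45 (1.56 to 3.62) and 2.97 (1.71 to 5.04), and Maf was higher at 1.53 and 2.32. Myoz2, at -0.92 and -0.93, Myom3, at -1.25 and -0.80, and Idh2, the mitochondrial isocitrate dehydrogenase, at -0.93 and -0.89, were lower. The mixture of pairs, with 124 of 300 WT but 38 of 130 knockout nuclei from Myh1+Myh4, lies behind each of these sums.

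Myhas, the antisense RNA between Myh1 and Myh4, was highest in nuclei led by Myh4 alone. It stood at 375 CPM in WT and 288 in knockout Myh4-only nuclei, at 187 and 103 in Myh1+Myh4 nuclei, and at 127 and 71.6 in Myh2+Myh4 nuclei. Myh1+Myh2 nuclei had 17.8 CPM (2 UMIs) and 54.6 CPM (10 UMIs), Myh1-only nuclei 40.8 and 22.6, and Myh2-only nuclei 19.1 and 17.4. The hybrids with Myh4 lay between the single-isoform classes, and nuclei with other-cell markers held 72.4 and 51.4 CPM. In the knockout this place rests on few UMIs, 10 in Myh1+Myh4 (interval 49.6 to 190 CPM) and 3 in Myh2+Myh4 nuclei (14.8 to 209). Both intervals include the 51.4 CPM of the other-cell nuclei. The use of strand in counting was not given in the sources used here. Without it, reads of Myhas and of the part of Myh1 that it overlaps cannot be told apart.

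Developmental myosin was not detected in the hybrids at this depth. Myh3 and Myh8, the embryonic and perinatal chains, and the myogenic factors Myog and Myod1 were at 0 UMIs in both libraries, as were Chrna1, Chrng and Chrnd, subunits of the acetylcholine receptor that rise in denervated fibres. Of the 13 denervation genes, 7 could be measured between the libraries. In the knockout hybrids 2 of them were at least 2-fold higher and 1 lower, against 8.79% and 4.78% of all genes. Hdac4, Musk, Fbxo32 and Trim63 lay within 2-fold, at log2 ratios of 0.18, 0.44, 0.56 and 0.11. Runx1, a factor induced by denervation, had 6 UMIs in WT (12.6 CPM) and 41 in knockout hybrids (117 CPM, in 20 nuclei), a log2 ratio of 3.12 (1.97 to 4.74). Ncam1, a cell adhesion molecule, had 3 and 23 UMIs, at 3.19 (1.66 to 5.76). Dach2, which represses the denervation response, had 55 and 13 UMIs, at -1.60 (-2.63 to -0.75). Runx1 and Ncam1 reached the minimum of 20 UMIs only with their knockout counts and Dach2 only with its WT count. The 2 higher genes and 1 lower gene are therefore a description. In Myh1+Myh2 nuclei alone Runx1 had 0 UMIs in WT and 25 in the knockout, and Ncam1 0 and 18. Knockout Myh1-only and Myh2-only nuclei held Runx1 at similar levels, 145 and 169 CPM.

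Between the libraries, 390 of 4435 genes were at least 2-fold higher (8.79%) and 212 at least 2-fold lower (4.78%) in the knockout hybrids. The median log2 ratio over all of them was 0.19. Since the libraries differ in their pairs, values for Myh1+Myh2 nuclei, 69 in WT and 74 in the knockout, are set beside those of all hybrids. There 260 of 2315 genes were at least 2-fold higher (11.2%) and 83 lower (3.59%). Genotype, sex mixture, library and the animals behind it cannot be told apart in these ratios. Abundant non-coding RNAs also differed between the hybrids of both libraries. Rn18s, a ribosomal RNA, had 32937 UMIs in WT and 11782 in the knockout, a log2 ratio of -1.04, and Malat1, a nuclear RNA, stood at -0.41. Gm10800 had 30 and 2 UMIs and Gm10801 56 and 3. With Malat1, Rn18s and mitochondrial genes left out of the totals, 309 genes were higher and 247 lower, and the part of Gm10800 and Gm10801 in the other ratios was not tested.

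Scn2a and Prune2 were among the genes ranked higher in the knockout hybrids. Scn2a, a voltage-gated sodium channel of neurons, had 9 UMIs in WT hybrids (18.9 CPM, in 7 nuclei) and 127 in knockout hybrids (363 CPM, in 44 of 130 nuclei), a log2 ratio of 4.19 (3.29 to 5.42). In Myh1+Myh2 nuclei it had 3 and 106 UMIs, at 4.22 (2.85 to 6.74). Scn2a was at 3.14 CPM in knockout Myh4-only nuclei and at 605 CPM in Myh2-only nuclei. Prune2, a BCH-domain protein, had 54 UMIs (113 CPM) and 280 UMIs (800.5 CPM), at 2.81 (2.39 to 3.27), and 3.21 (2.45 to 4.19) in Myh1+Myh2 nuclei. Glis3, a zinc finger factor, had 5 and 59 UMIs, Cyfip2, a regulator of actin branching, 5 and 49, Asap2, an ARF GTPase activator, 7 and 56, and Tlr4, the endotoxin receptor, 7 and 48. Apart from Prune2, these genes had 9 UMIs or fewer in the WT hybrids, so the WT side of their ratios rests on few UMIs.

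Lama2, Pcdh7, Pde10a and Abcg2 were at least 2-fold higher in knockout Myh4-only nuclei too. Lama2, a laminin chain of the basement membrane, had 79.9 and 417 CPM in hybrids and 136 and 880 in Myh4-only nuclei, and its log2 ratio of 2.37 (1.86 to 2.94) was 0.92 (-0.01 to 2.03) in Myh1+Myh2 nuclei. Pcdh7, a protocadherin, had 54.6 and 306 CPM in hybrids, Pde10a, a phosphodiesterase, 42.0 and 246, and Abcg2, an efflux transporter, 29.4 and 169. Car3 and Cacna1a were not higher in knockout Myh4-only nuclei. Car3, the carbonic anhydrase of slow and oxidative muscle, had 35.7 and 206 CPM in hybrids and 50.3 and 43.2 in Myh4-only nuclei. Cacna1a, a neuronal calcium channel subunit, had 18 and 60 UMIs in hybrids, at 2.15 (1.40 to 3.03), and 2.33 (1.22 to 3.95) in Myh1+Myh2 nuclei. In Myh1+Myh4 nuclei Cacna1a had 5 and 1 UMIs, at -0.96, the opposite direction.

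**Figure D5:**
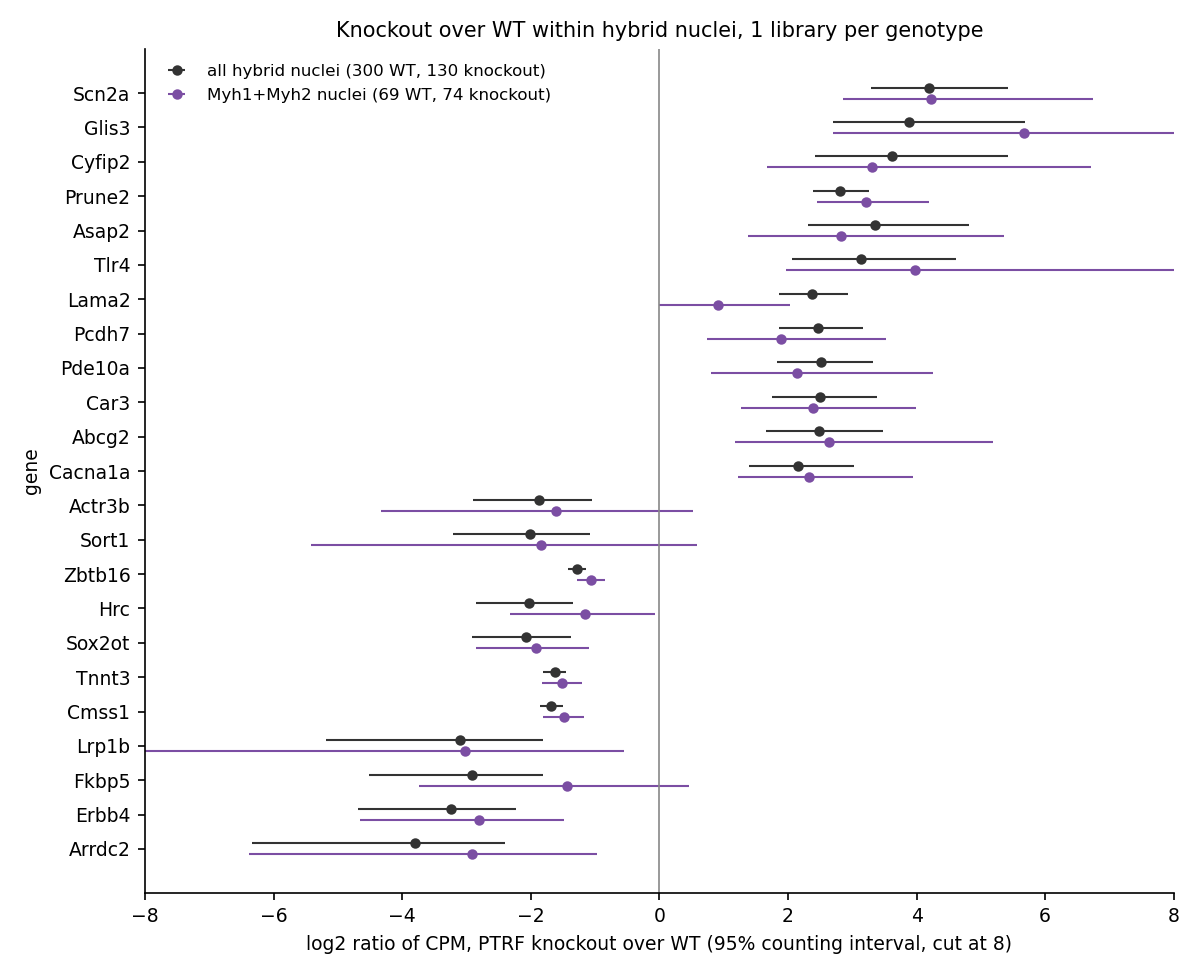
Log2 ratio of CPM, PTRF knockout over WT, for genes named by size, in all hybrid nuclei (black) and in Myh1+Myh2 nuclei only (purple), with 95% counting intervals cut at 8. Scn2a stands at 4.19 and 4.22, and Lama2 moves from 2.37 to 0.92.

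Erbb4, Fkbp5 and Zbtb16 were among the genes lower in the knockout hybrids. Erbb4, a neuregulin receptor, had 96 UMIs in WT (202 CPM, in 40 nuclei) and 7 UMIs in knockout hybrids (20.0 CPM, in 4 nuclei), a log2 ratio of -3.24 (-4.69 to -2.24), and -2.80 (-4.66 to -1.48) in Myh1+Myh2 nuclei. In WT it was higher where Myh2 was, at 273 CPM in Myh2-only and 61.5 in Myh4-only nuclei. Fkbp5, a glucocorticoid-induced chaperone, had 66 and 6 UMIs, at -2.91 (-4.51 to -1.82), and -1.44 (-3.73 to 0.46) in Myh1+Myh2 nuclei, where it had 7 and 4. Zbtb16, also induced by glucocorticoids, had 3642 and 1504 CPM, at -1.28 (-1.42 to -1.13), and was lower in single-isoform nuclei as well, with 2867 and 1123 CPM in Myh4-only nuclei.

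The other lower genes were lower in knockout Myh4-only nuclei as well. Tnnt3, the fast troponin T, had 2936 and 949 CPM in hybrids and 3705 and 1215 in Myh4-only nuclei, log2 -1.63 (-1.81 to -1.46) in hybrids. Arrdc2, an arrestin-domain protein, had 66 and 3 UMIs and Lrp1b, a lipoprotein receptor relative, 52 and 4. Hrc, the histidine-rich calcium-binding protein of the sarcoplasmic reticulum, had 227 and 54.3 CPM. Cmss1, whose locus encloses Filip1l on the opposite strand, had 2803 and 875 CPM. Sox2ot (105 and 18 UMIs), Sort1 (57 and 10) and Actr3b (67 and 13) were lower too. Sort1 and Actr3b had 5 and 2, and 6 and 3, UMIs in Myh1+Myh2 nuclei, with intervals that include 0. Among the 44 genes named by size, 15 share bases with a gene annotated on the same strand and a further 8 with a gene on the other strand alone, so the origin of part of these UMIs is uncertain.

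The fast and oxidative lists had medians near 0 between the libraries in the hybrids. Of 17 measured fast genes 1 was at least 2-fold higher (Ldha, 15 and 29 UMIs) and 1 lower (Tnnt3), with a median log2 ratio of 0.04. Of 18 oxidative genes 1 was higher and 3 lower, with a median of 0.13. Lpl was the higher one, at 1.17 (0.84 to 1.51), and Pdk4, the kinase that holds back pyruvate oxidation, was lower at -1.58 (-2.27 to -0.97), from 225 to 74.3 CPM. Among the regulators Foxo1, a factor of fasting and atrophy, was lower, at -1.02 (-1.44 to -0.62). The counts of the fast and oxidative lists lie near or below the 8.79% and 4.78% of all genes, apart from the 3 lower oxidative genes of 18. Few members of the junction and developmental lists reached 20 UMIs. Of 3 measured neuromuscular junction genes 2 were higher, Lrp4, the agrin receptor (15 and 28 UMIs), and Prkar1a (7 and 14). Both measured genes of the developmental list were higher, Ncam1 (3 and 23 UMIs) and Runx1 (6 and 41). These 2 are also the higher genes among 7 measured on the denervation list, where Dach2 was lower. The 1 measured myotendinous gene, the collagen Col24a1, was lower (26 and 3 UMIs). The genes called higher or lower in these short lists reached 20 UMIs only with the count of the library where they were higher. Their numbers are therefore a description and no support for a list.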

How the data were processed

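The deposited files hold whole-number UMI counts per gene and barcode for 2 libraries, which the authors made with version 6.0.0 of Cell Ranger according to the headers. STAR, Seurat 4.1.1 and builds mm10 and GRCm38 are named in the submitters' processing notes; no source used here gives the annotation release or the use of introns and strand. The members, gene lists and gene sets were chosen with earlier results of these data known. Where 81 symbols stand for several gene IDs, the ID with most UMIs was used. Doublets were not removed.

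UMIs were summed per library and class of nuclei with Python 3.11.15, numpy 2.4.6, scipy 1.17.1 and pandas 2.3.3, and figures were drawn with matplotlib 3.10.9. Ratios of CPM add 0.5 UMI to each side and carry 95% exact conditional binomial intervals; shares have exact Clopper-Pearson, levels exact Poisson and differences of shares Newcombe intervals. All treat UMIs or nuclei as independent and cover counting error only. Genes needed at least 20 UMIs over the classes compared. The ranked genes needed 50 UMIs: against Myh4-only nuclei, the 10 highest and 10 lowest by the smaller of both libraries' ratios, and between libraries, 12 in each direction whose interval lies beyond 2-fold, ordered by its end closest to a ratio of 1. Predicted, mitochondrial, ribosomal, haemoglobin, sex-linked and rule genes were left out of the ranking, and listed genes could also be named; some of these genes are not reported here. Thinning drew UMIs without replacement (seed 7). The code was tested on simulated data. Alternatives changed the myosin thresholds, depth, sex mark, the level in other-cell nuclei, scaling and low-count filter.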

Additional observations from a re-analysis of the deposited data

How the results depend on the processing

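No paired analysis was possible because each genotype is a single library, and no library could be left out. Among alternative values of the main results 115 stayed close to the reported ones, 36 moved and 1 reversed. With the second isoform at 3 or more UMIs the hybrid share was 3.71% in WT and 2.84% in the knockout (difference -0.868 points), and at 5 or more 0.888% and 1.07% (0.178 points, the opposite direction). A leader below 70% gave 7.23% and 3.67%, and below 90% gave 10.7% in WT. At least 500 genes gave 11.3% in WT and a difference of -6.15 points. Y-marked nuclei gave 11.4% in WT and -6.87 points. Lowering Myh4 gave 7.59% in WT and -2.28 points, and lowering all isoforms, chosen after seeing the data, 6.28% and -1.02 points. Thinning gave 8.17% and 3.60%, and pair differences of 48.5 points for Myh1+Myh2 and -31.7 for Myh1+Myh4. In nuclei with at least 5 other-cell marker UMIs, knockout Myh4 was 4.01 per 10000, and WT Myh1 and Myh2 were 1.26 and 0.379. With a minimum of 100 UMIs, which tests fewer genes, 270 genes were higher and 282 lower than in Myh4-only nuclei, and 51 higher and 23 lower in the knockout hybrids. Genes lower in the knockout numbered 119 with the second isoform at 3 or more UMIs, 123 in Y-marked, 83 in Myh1+Myh2 and 124 in Myh1+Myh4 nuclei, where 211 were higher; pair-wise values were also chosen after seeing the data. The slow-list median against Myh4-only nuclei was 3.83 in WT and 4.32 in the knockout with the second isoform at 3 or more UMIs, 7.33 in Y-marked knockout nuclei, and 5.95 and 6.92 in Myh1+Myh2 nuclei. The knockout fast-list median was -0.12 in Myh1+Myh4 nuclei, and Cacna1a reversed there, to -0.96. Apart from the alternatives' own construction, the cause of these shifts was not tested. Where Myh4 is the second isoform, 2 UMIs lie near the level of the other-cell nuclei, which limits what the depth can show for single nuclei.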

Other observations

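Nuclei outside the rule also met its myosin part. Among nuclei with more than 1 Nr4a UMI and at least 4 myosin UMIs, 18 of 149 (12.1%) did so in WT and 91 of 1134 (8.02%) in the knockout, and among those with an other-cell marker UMI 41 of 350 (11.7%) and 30 of 392 (7.65%). The nuclei with 3 isoforms at 2 or more UMIs each were deep, with a median of 2352 UMIs in the 11 WT nuclei and 6179 in the 4 knockout nuclei. Among genes of the neuromuscular junction, 2 of 3 measured were at least 2-fold higher in knockout hybrids, against 8.79% of all genes.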
